A study of Arabidopsis thaliana with 10 samples.

Results

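The comparison described here is the change in transcript levels of etiolated Arabidopsis thaliana seedlings grown on propiconazole (PPZ), an inhibitor of brassinosteroid synthesis, in the absence of added gibberellin. It uses 4 of the 10 libraries of the study, chosen by their labels: the 2 libraries of wild type on PAC and PPZ with mock, and the 2 libraries of wild type on PAC with mock. Both groups were ecotype Col-0, grew for 4.5 days in the dark on medium with 1 µM paclobutrazol (PAC, an inhibitor of gibberellin synthesis), and received a mock solution 12 hours before the end. The medium held 2 µM PPZ in the first group and 0 µM in the second, so the comparison is made on a background in which gibberellin synthesis was also inhibited. The tissue is labelled hypocotyl, and one library of each group is marked as a repeat. The other groups were wild type with 10 µM GA3, an active gibberellin, on PAC and PPZ or on PAC alone, and bzr1-1D, a dominant mutant with a stabilised BZR1, given mock on medium with PAC and PPZ.

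Brassinosteroids are steroid hormones made from campesterol by a series of cytochrome P450 enzymes and a reductase. The hormone binds the receptor kinase BRI1 at the cell surface, the kinase BIN2 is switched off, and the transcription factors BZR1 and BES1 gather in the nucleus. In wild-type plants these factors repress the synthesis genes and raise genes for cell elongation, which in the dark drives the growth of the hypocotyl. Gibberellin removes the DELLA repressors, and auxin, PIF transcription factors and a network of helix-loop-helix proteins act on many of the same growth genes.

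The deposited tables give group means, and the whole reads of each library were recovered from these means. The recovered gene reads were 16255127 and 15521456 in the deeper and the shallower PPZ library, against 16546607 and 8080550 in the deeper and the shallower library without PPZ. In each group below, the deeper library is given first. Nothing ties a recovered library to the first sample or to its repeat, and no label states separate cultures, so p-values measure only how far these libraries spread, a spread that may be technical. The spread was uneven. For genes averaging 1000 normalized reads or more, the SD of the log2 ratio within a pair was 0.0889 on PPZ and 0.244 without PPZ. Libraries of a pair differed by more than counting noise in both groups, with a chi-square over degrees of freedom of 2.3 on PPZ and 10.2 without PPZ. In bulk tissue, fewer cells of a type and less RNA per cell cannot be told apart.

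At a limma-voom adjusted p under 0.05, 2353 genes were higher on PPZ (12.1%) and 2242 lower (11.5%). In all, 4595 of the 19501 genes tested changed (23.6%), the share to set beside the list counts below that use all 4 libraries. That share does not apply to list counts with 1 library left out. Those are to be set beside all calls of the same setting, given at the end of this paragraph. Among the calls, the changes upward were the larger ones, with a median log2 change of 0.95 among genes called higher and −0.58 among genes called lower. With only genes averaging 50 normalized reads or more, 1685 were called higher and 2031 lower, so calls higher held more genes with few reads. Whether this shaped the medians was not tested. Among the calls, 1131 genes (5.8%) were at least 2-fold higher and 480 genes (2.46%) at least 2-fold lower, and 140 genes were at least 8-fold higher against 18 at least 8-fold lower. The median log2 change of all tested genes was 0.0082. The libraries of both groups did not overlap for 12439 genes (63.8%), and 7037 genes had an unadjusted p under 0.05. The split depended on the scaling: with libraries scaled by their total reads, 3018 genes were called higher and 1675 lower. Leaving out the deeper or the shallower PPZ library left 2313 and 2166 calls, and leaving out the deeper or the shallower library without PPZ gave 7013 and 7108 calls.

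**Figure D1:**
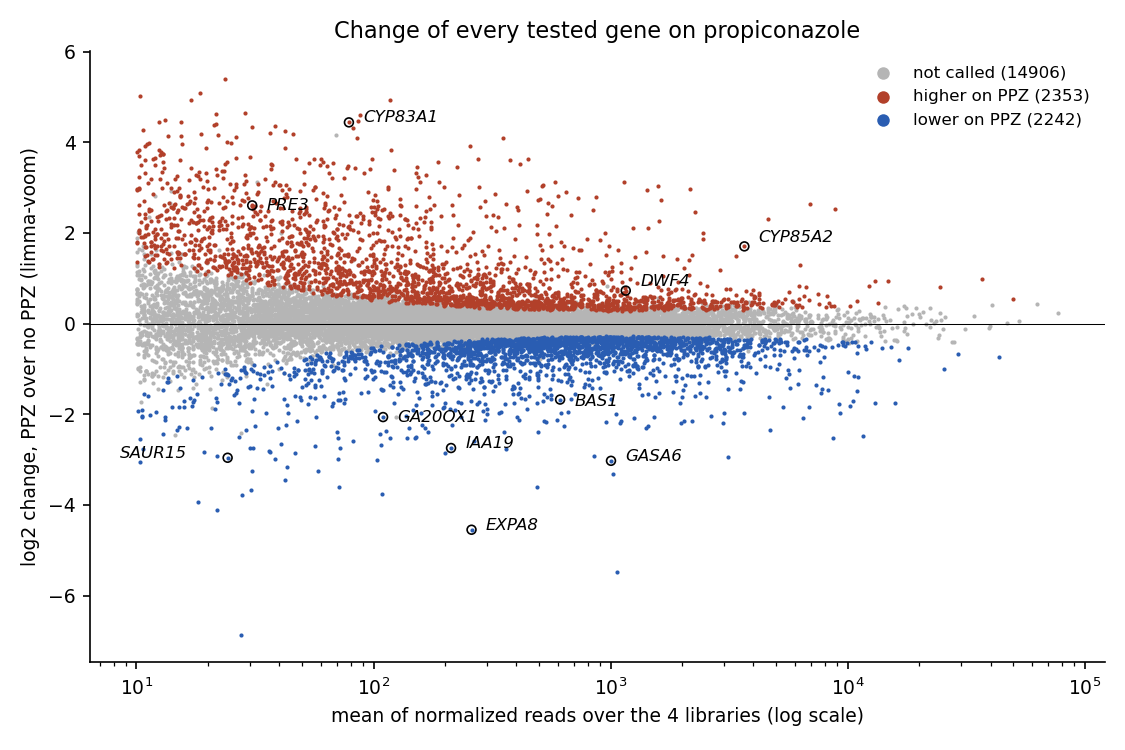
Log2 change of each of the 19501 tested genes (PPZ over no PPZ, limma-voom, vertical axis) against its mean of normalized reads over the 4 libraries (horizontal log axis), with the 2353 genes called higher in red, the 2242 called lower in blue and the rest in grey. Circled genes are described in the text, from CYP83A1 at 4.44 to EXPA8 at −4.55.

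Among the genes of brassinosteroid synthesis, 3 of 7 rose and none fell. DWF4 (AT3G50660) encodes the C-22 hydroxylase regarded as a rate-limiting step. It had 1383 and 1480.3 normalized reads on PPZ, against 745 and 1023 without PPZ (log2 change 0.73 ± 0.14 SE, adjusted p = 0.0063). CYP85A2 (AT3G30180), the enzyme of the last oxidation steps to castasterone and brassinolide, had 5656 and 5548 normalized reads on PPZ, against 1497 and 1954 without PPZ (1.70 ± 0.14, adjusted p = 8.9e-05). CYP90D1 (AT3G13730), a C-23 hydroxylase, had 309 and 345 normalized reads on PPZ, against 92.1 and 144 without PPZ (1.58 ± 0.19, adjusted p = 0.00053). The libraries of both groups lay apart for all 3 genes and for 4 of the 7 in the list, beside 63.8% of all genes tested. The other 4 synthesis genes were not called. CPD (AT5G05690), the C-3 oxidase and a gene known to be repressed by brassinosteroid, had 6157 and 5891 normalized reads on PPZ, against 7123 and 5583 without PPZ (log2 change −0.05 ± 0.14). ROT3, a second C-23 hydroxylase, stood at a log2 change of −0.32 ± 0.16, CYP85A1 at −0.13 ± 0.18 and DET2, the steroid reductase, at 0.06 ± 0.14. Without the deeper library without PPZ, ROT3 was called lower (−0.62). Without the shallower one, CPD was called lower (−0.24), and its log2 change was 0.11 without the deeper one. The median log2 change of the 7 genes was 0.06.

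The 300 bases before the annotated start of the 3 synthesis genes that rose are shown because BZR1 and BES1 are known to act on synthesis gene promoters. They were read from RefSeq assembly TAIR10.1 by locus identifier. The deposited tables hold no coordinates and name no build. All 3 genes lie on chromosome 3, and each window is written 5′ to 3′ on the strand of its gene.
DWF4, chr3:18817406-18817705, minus strand: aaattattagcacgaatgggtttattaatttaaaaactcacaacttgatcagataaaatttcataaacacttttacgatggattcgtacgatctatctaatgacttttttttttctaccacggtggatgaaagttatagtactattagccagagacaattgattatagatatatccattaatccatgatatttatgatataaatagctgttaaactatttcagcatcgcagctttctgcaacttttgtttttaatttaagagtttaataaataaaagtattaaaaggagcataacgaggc
CYP85A2, chr3:11810426-11810725, plus strand: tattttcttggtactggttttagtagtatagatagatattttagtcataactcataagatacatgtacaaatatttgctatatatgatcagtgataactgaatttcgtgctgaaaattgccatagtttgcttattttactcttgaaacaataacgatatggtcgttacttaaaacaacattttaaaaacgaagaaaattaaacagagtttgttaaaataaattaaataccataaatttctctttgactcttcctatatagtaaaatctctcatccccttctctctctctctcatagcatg
CYP90D1, chr3:4500921-4501220, minus strand: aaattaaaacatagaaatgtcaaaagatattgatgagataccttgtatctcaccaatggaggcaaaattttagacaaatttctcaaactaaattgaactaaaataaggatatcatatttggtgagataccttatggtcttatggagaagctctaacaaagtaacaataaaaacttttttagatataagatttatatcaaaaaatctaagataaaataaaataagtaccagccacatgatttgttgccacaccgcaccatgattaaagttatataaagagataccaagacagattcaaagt
The windows were searched on both strands for the brassinosteroid response element in the forms CGTGTG and CGTGCG and for the G-box CACGTG, and matches would be in capitals. None of the 3 windows, nor those of the 4 synthesis genes that were not called, held one of these motifs. Bases further upstream and those after the annotated start were not searched, so matches may lie there. Of the windows of 27443 protein-coding nuclear genes, 6.11% held CGTGTG, 1.78% held CGTGCG, 7.09% held CACGTG and 12.9% held any of them. CACGTG ends in CGTG, with which CGTGTG and CGTGCG start, so matches may share bases. Any of them stood in 16.9% of the windows of genes called higher, 13.1% of those of genes called lower and 14.1% of those of genes tested.

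Genes that inactivate brassinosteroids went the other way, with 3 of 6 tested lower and 1 higher. BAS1 (AT2G26710), a C-26 hydroxylase, fell to 286 and 292 normalized reads on PPZ, against 846 and 1023 without PPZ (log2 change −1.68 ± 0.12, adjusted p = 4.3e-05). Its relative SOB7 stood at 257 and 242 on PPZ, against 423 and 490.3 without PPZ (−0.85 ± 0.12, adjusted p = 0.0011). The reductase gene BEN1 also fell (−0.93 ± 0.15). BIA1 (AT4G15400), an acyltransferase linked to brassinosteroid inactivation, rose to 72.5 and 91.2 on PPZ, against 13.4 and 19.3 without PPZ (2.35 ± 0.32, adjusted p = 0.0011). The glucosyltransferase gene UGT73C5 and the acyltransferase gene BAT1 were not called, and UGT73C6 was under the filter of a mean of 10 normalized reads.

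Of 14 tested signalling genes, 5 fell and 2 rose, a share called above the 23.6% of all genes tested. The receptor gene BRI1 had 3622 and 3576 normalized reads on PPZ, against 4159 and 4338 without PPZ, and was not called (log2 change −0.24 ± 0.10), nor were BZR1 (−0.21 ± 0.10) and BES1 (−0.19 ± 0.10). BRI1 was called lower with either library of the group without PPZ left out (−0.27 and −0.21), and BZR1 (−0.30) and BES1 (−0.26) were so without the deeper one. BIN2, the kinase that restrains the pathway, had 3734 and 3712 normalized reads on PPZ, against 5226 and 5639 without PPZ (−0.55 ± 0.10, adjusted p = 0.0055). The receptor-like gene BRL3 had 321 and 372 on PPZ, against 211 and 172 without PPZ (0.82 ± 0.14, adjusted p = 0.0037). Without the deeper or the shallower PPZ library 2 and 1 members were called lower, and the call of BIN2 was lost in both cases (−0.56 and −0.55). Of 15 genes of sterol synthesis, which feeds the pathway, 7 fell and none rose. SMT3, a sterol methyltransferase, had 830.4 and 936 normalized reads on PPZ, against 1519 and 1858 without PPZ (−0.94 ± 0.12, adjusted p = 0.00078). CYP710A1, which makes stigmasterol, had 326 and 310.1 on PPZ, against 468 and 613 without PPZ (−0.73 ± 0.14). CYP51G1, the sterol demethylase of the azole-sensitive P450 family, was not called (0.10), nor was DWF1 (−0.05). Fewer sterol genes were called lower with either PPZ library left out, as was so among all genes tested.

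**Figure D2:**
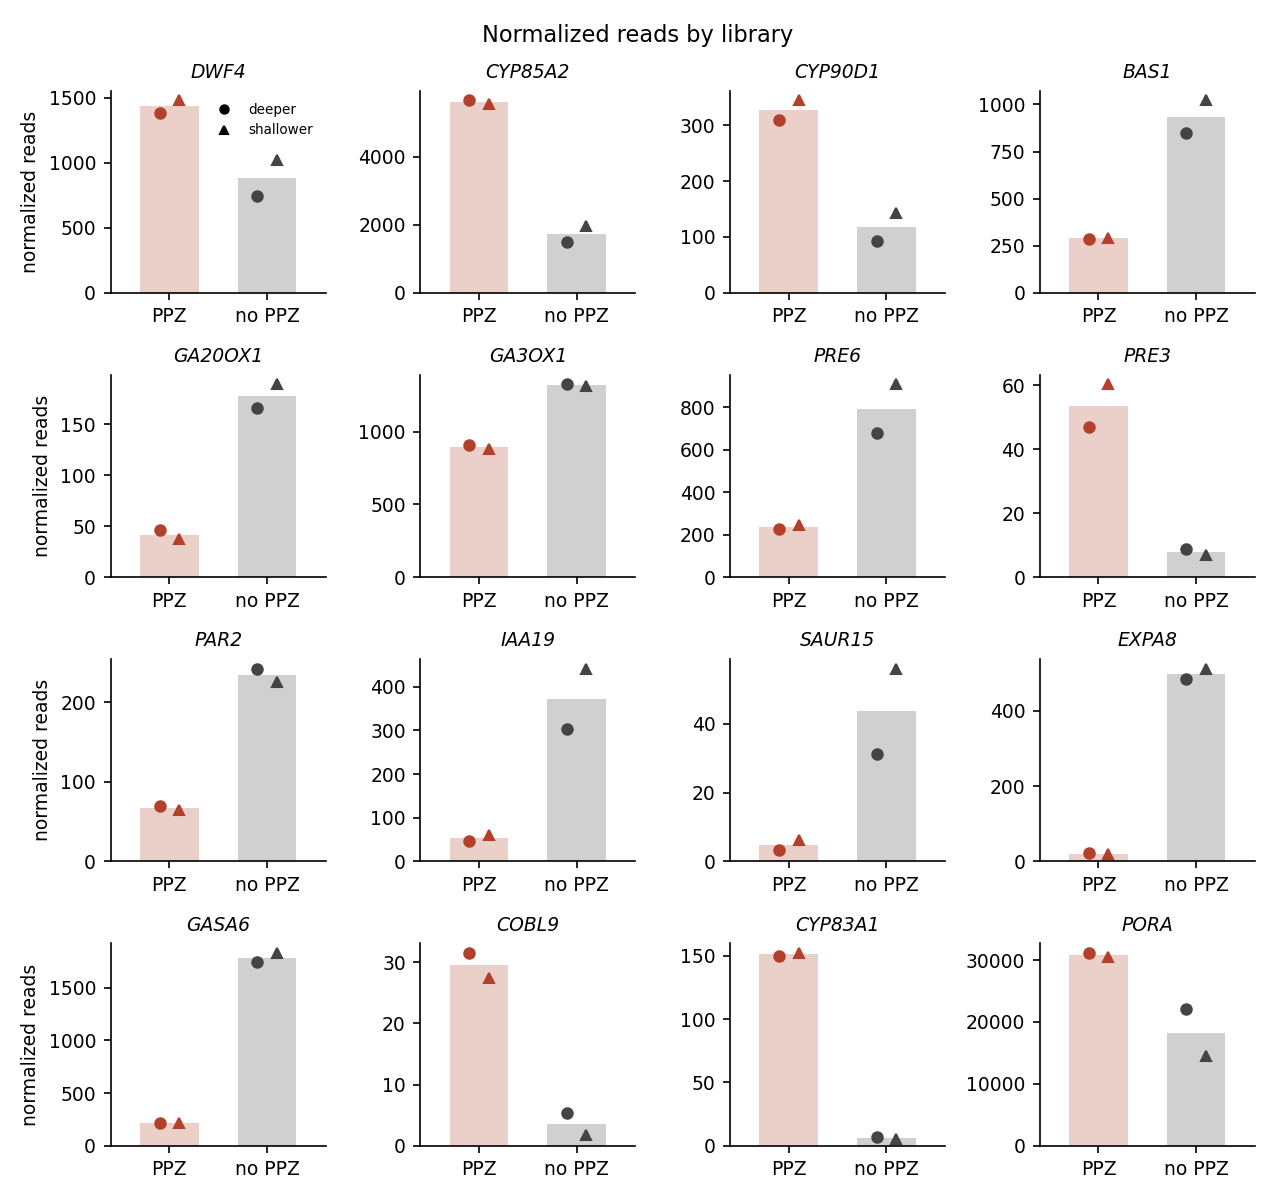
Normalized reads of 16 genes by library, with PPZ on the left and no PPZ on the right of each panel. Circles are the deeper and triangles the shallower library, and bars are their mean. CYP85A2 lies at 5656 and 5548 normalized reads on PPZ, against 1497 and 1954 without PPZ.

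Genes of gibberellin synthesis fell where they changed, with 4 of 9 tested lower and none higher. GA20OX1 (AT4G25420), a GA 20-oxidase, had 46.0 and 37.2 normalized reads on PPZ, against 166 and 189 without PPZ (log2 change −2.06 ± 0.19, adjusted p = 0.00017). GA20OX2 had 1453 and 1550.3 on PPZ, against 2879.8 and 4425 without PPZ (−1.28 ± 0.17, adjusted p = 0.0010). GA3OX1, which makes bioactive gibberellin, had 906 and 881 on PPZ, against 1326 and 1313 without PPZ (−0.56 ± 0.09, adjusted p = 0.0022). GA1, GA2, GA3, KAO1 and KAO2, the early steps, were not called. Of the GA 2-oxidases, which inactivate gibberellin, GA2OX2 rose (1.25 ± 0.30, adjusted p = 0.017), a call lost with either PPZ library left out (1.31 and 1.19), and GA2OX6 was not called. Of 10 genes of gibberellin perception, 2 DELLA genes fell: RGL1 (−0.81 ± 0.16) and GAI (−0.47 ± 0.09). The share called was near the 23.6% of all genes tested. The call of GAI was lost with either PPZ library left out (−0.49 and −0.46). The DELLA gene RGA had 1659 and 1721 normalized reads on PPZ, against 1983 and 1939 without PPZ, and was not called (−0.21 ± 0.09). It was called lower with either library of the group without PPZ left out (−0.20 and −0.23). SCL3 was not called (−0.09 ± 0.09).

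The GASA peptides, a family known for members under gibberellin control, split evenly, with 3 of 9 tested higher and 3 lower. GASA6 (AT1G74670) had 218 and 219.7 normalized reads on PPZ, against 1743 and 1832 without PPZ (log2 change −3.03 ± 0.10, adjusted p = 5.7e-06). GASA1 had 6957 and 6702 on PPZ, against 13006 and 17651 without PPZ (−1.17 ± 0.15). GASA2 rose to 105 and 77.1 on PPZ, against 34.0 and 28 without PPZ (1.49 ± 0.27), and GASA3 rose to 286 and 246 on PPZ, against 106 and 163 without PPZ (1.09 ± 0.19). Another 6 members were under the filter.

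Helix-loop-helix regulators of elongation fell on both sides of their network. Of 8 tested growth-promoting members, 6 fell and 1 rose, with a median log2 change of −0.91. PRE6 (AT1G26945) had 228 and 247 normalized reads on PPZ, against 679 and 909 without PPZ (−1.71 ± 0.15, adjusted p = 0.00011). PRE5 had 18.8 and 23.9 on PPZ, against 54.5 and 89.3 without PPZ (−1.61 ± 0.32, adjusted p = 0.0074). HBI1, a bHLH activator of elongation genes, stood at −0.70 ± 0.14 and BEE1, an early brassinosteroid response gene, at −1.02 ± 0.15. PRE3 went against the others, with 46.9 and 60.2 normalized reads on PPZ, against 8.94 and 7 without PPZ (2.61 ± 0.37, adjusted p = 0.0015). PRE1 was under the filter, with a group mean of 0.426 on PPZ and 3.97 without PPZ, and BNQ3 had no reads in either group. All 8 members known to restrain elongation fell, with a median of −0.90. PAR2 had 69.9 and 64.7 normalized reads on PPZ, against 242 and 226 without PPZ (−1.80 ± 0.15, adjusted p = 0.00010). AIF1 stood at −1.34 ± 0.21. IBH1, which binds and inactivates HBI1, had 325 and 385 on PPZ, against 452 and 655 without PPZ (−0.59 ± 0.17, adjusted p = 0.035). The call of IBH1 was lost without the deeper PPZ library (−0.48) and with scaling by total reads (−0.50).

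Of 6 tested genes of the PIF family, bHLH factors that promote growth in the dark, 3 fell. PIF4 had 171 and 151 normalized reads on PPZ, against 377 and 420.3 without PPZ (log2 change −1.29 ± 0.13, adjusted p = 0.00020). PIF5 had 282 and 300.3 on PPZ, against 488 and 476 without PPZ (−0.73 ± 0.10). UNE10, also named PIF8, fell (−1.39 ± 0.29), a call lost without the shallower PPZ library (−1.23). PIF1 (−0.06), PIF3 (0.07) and PIF6 (0.23) were not called. Among 7 genes of shade and HD-Zip responses 3 fell, led by HAT2 (−1.23 ± 0.10, adjusted p = 8.1e-05), while ATHB2 was not called (−0.26), and 5 were called lower without the deeper library without PPZ.

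Of the lists, the SAUR genes had the lowest median. Of 21 tested SAUR genes, small auxin-induced proteins that promote cell expansion, 18 fell and none rose, with a median log2 change of −2.59. SAUR16 (AT4G38860) had 11.9 and 15.9 normalized reads on PPZ, against 172 and 235 without PPZ (−3.77 ± 0.33, adjusted p = 0.00011). SAUR15 had 3.41 and 6.2 on PPZ, against 31.3 and 56.0 without PPZ (−2.96 ± 0.50, adjusted p = 0.0034). Even the call nearest 0, SAUR9, stood at −1.93 ± 0.26, and SAUR32, SAUR36 and SAUR41 were not called. SAUR19 to SAUR24 and SAUR62 to SAUR67 are groups of near-identical genes, and reads aligned to several places were set apart by the authors' counting, so their separate values are uncertain. The summed level of the 21 genes was 893 and 988 normalized reads on PPZ, against 2600.0 and 3418 without PPZ. Leaving out either PPZ library gave 18 genes called lower.

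Of 25 tested Aux/IAA genes, repressors that auxin itself induces, 13 fell and 1 rose, with a median of −0.57. IAA6 had no reads in either PPZ library, against 42.0 and 68.3 normalized reads without PPZ, which makes it at least 39.0-fold lower on PPZ when 3 reads over the PPZ group are taken as the floor. IAA19 (AT3G15540) had 46.0 and 59.4 normalized reads on PPZ, against 302 and 441 without PPZ (log2 change −2.75 ± 0.25, adjusted p = 0.00014). IAA3 had 323 and 348 on PPZ, against 1134 and 2009 without PPZ (−2.18 ± 0.23). IAA28 rose (0.68 ± 0.14, adjusted p = 0.0076), a call lost without the shallower PPZ library (0.63). Of 17 genes of auxin synthesis and transport, 11 fell and none rose. The synthesis gene TAA1 had 243 and 229 normalized reads on PPZ, against 408 and 398 without PPZ (−0.77 ± 0.11, adjusted p = 0.0012). YUC8, a flavin monooxygenase of the next step, stood at −0.61 ± 0.13 and the efflux carrier PIN3 at −0.42 ± 0.10, while PIN2, another efflux carrier, was not called (0.23). Leaving out either PPZ library gave 2 genes of this list called lower. Among 8 GH3 genes, whose enzymes conjugate auxin, GH3.17 rose to 1119 and 1269.5 on PPZ, against 568 and 746 without PPZ (0.89 ± 0.13, adjusted p = 0.0019), and the others were not called.

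Wall-loosening families held changes in both directions. Of 24 tested expansins, 12 fell and 7 rose. EXPA8 (AT2G40610) had 23.0 and 18.6 normalized reads on PPZ, against 483 and 511 without PPZ (log2 change −4.55 ± 0.22, adjusted p = 1.3e-05). EXLA2 stood at −1.65 ± 0.17. Among those that rose, EXPA18 had 34.1 and 36.3 on PPZ, against 4.47 and 5.25 without PPZ (2.73 ± 0.40, adjusted p = 0.0017). EXPA12 had 48 reads in all on PPZ and 1 without PPZ, a ratio of 35.2 after scaling with an exact 95% counting interval of 6.03 to 1420.5. EXPA18 and EXPA7, which also rose (1.97 ± 0.43), are both known from root hairs and stand on the root hair list as well. Without the deeper or the shallower PPZ library 7 expansins each were called lower, and 5 and 4 were called higher. Of 26 tested xyloglucan endotransglucosylases (XTH), which cut and rejoin wall xyloglucan, 9 fell and 6 rose. XTH5 had 145 and 165 normalized reads on PPZ, against 635 and 662 without PPZ (−2.06 ± 0.12, adjusted p = 2.0e-05). XTH4 had 3651 and 3848 on PPZ, against 12248 and 17241 without PPZ (−1.98 ± 0.15). XTH20 had 109 and 137 on PPZ, against 27.7 and 24.5 without PPZ (2.18 ± 0.26, adjusted p = 0.00062), and XTH9 had 2900.3 and 2802 on PPZ, against 1229 and 1208 without PPZ (1.23 ± 0.09). XTH22, a touch- and brassinosteroid-induced member, stood at −0.43 ± 0.12 (adjusted p = 0.026), a call lost with either PPZ library left out (−0.43 and −0.45), with all 10 libraries in the fit (adjusted p = 0.16) and with scaling by total reads. With all 10 libraries in the fit XTH20 was not called either (adjusted p = 0.062).

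Of 9 genes of primary wall cellulose synthesis 3 fell, among them KOR1 (log2 change −0.65 ± 0.12) and CESA6 (−0.53 ± 0.11), and none was called without the deeper or without the shallower PPZ library. Without the deeper or the shallower library without PPZ, 7 and 5 were called lower. Of 24 tested genes of secondary wall and lignin, 4 fell and 3 rose, a share called near the 23.6% of all genes tested. The laccase gene LAC4 had 233 and 219 normalized reads on PPZ, against 399 and 396 without PPZ (−0.82 ± 0.11, adjusted p = 0.00098). FAH1, the ferulate 5-hydroxylase of syringyl lignin and sinapate esters, had 480.0 and 541 on PPZ, against 164 and 168 without PPZ (1.62 ± 0.13, adjusted p = 7.1e-05). More members were called lower without the deeper library without PPZ, and fewer were called with either PPZ library left out. Calls among all genes tested moved the same way.

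Aquaporins fell widely. Of 21 tested genes of these water channels, 15 fell and 2 rose, with a median log2 change of −0.71, and their summed level was 86026 and 82526 normalized reads on PPZ, against 164859 and 173819 without PPZ. TIP2;1, a tonoplast aquaporin, had 2721 and 2398 on PPZ, against 14697 and 14738 without PPZ (−2.53 ± 0.12, adjusted p = 1.1e-05). PIP1;3, a plasma membrane aquaporin, had 2953 and 3016 on PPZ, against 9895 and 11513 without PPZ (−1.85 ± 0.11). TIP3;1, a seed aquaporin, rose (0.87 ± 0.19), as did TIP4;1 (2.42 ± 0.33), which is known from roots. Without the deeper PPZ library 8 aquaporins were called lower. Of 9 tested genes of wax and very-long-chain fatty acid synthesis, 4 fell and 1 rose. The elongase gene KCS1 had 989.8 and 971 normalized reads on PPZ, against 2619.7 and 3420.2 without PPZ (−1.63 ± 0.13, adjusted p = 6.7e-05), and KCS6 stood at −1.42 ± 0.11. CER4, an acyl reductase, had 56 reads in all on PPZ and 1 without PPZ, a ratio of 41.1 with a counting interval of 7.08 to 1652.

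**Figure D3:**
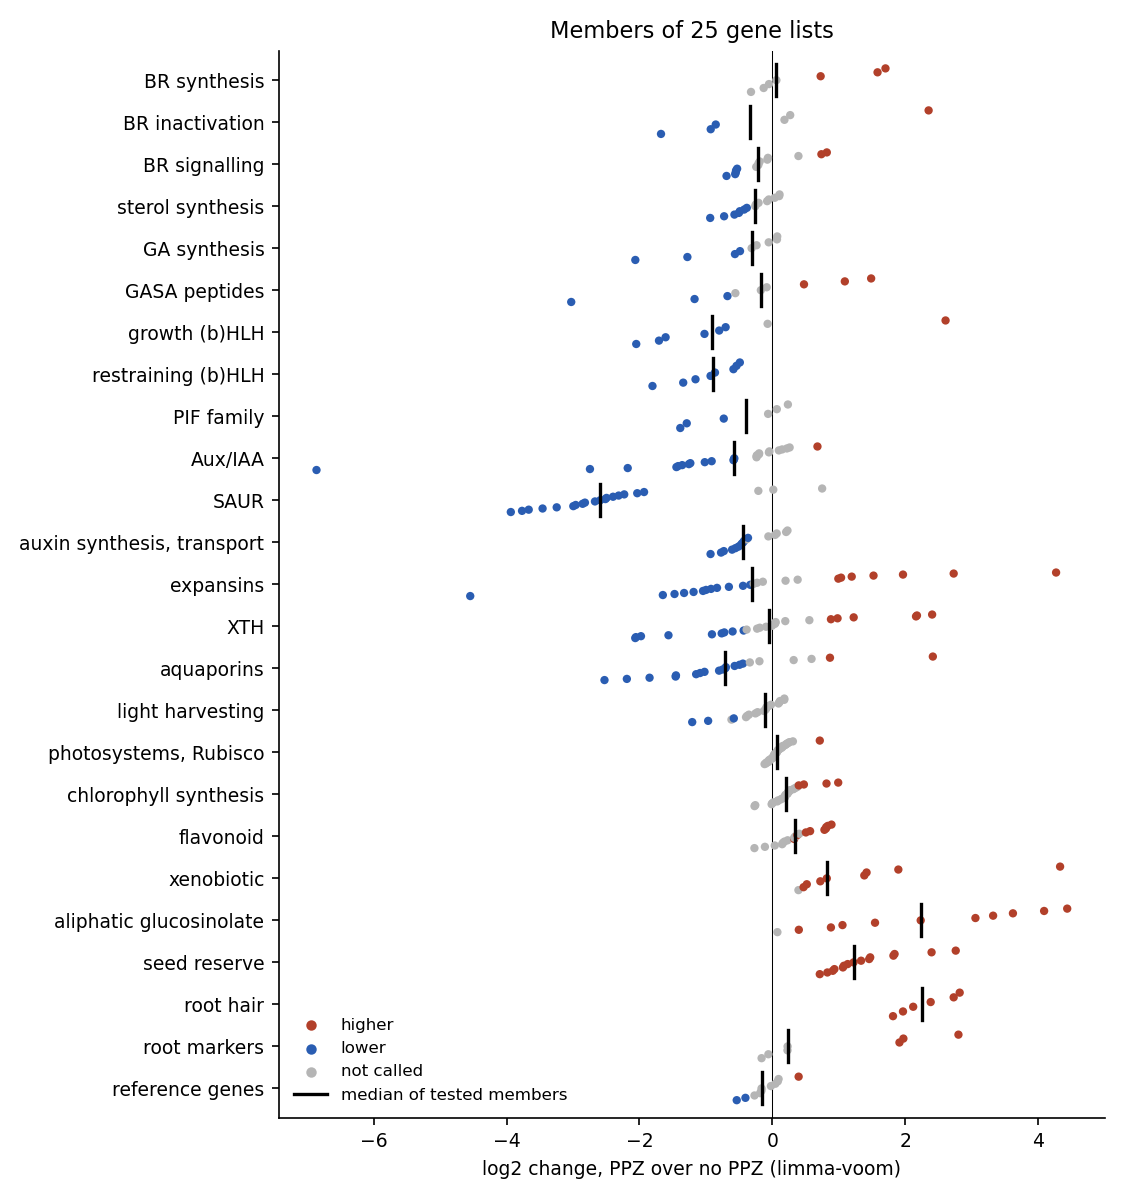
Log2 change (PPZ over no PPZ, limma-voom) of each tested member of 25 gene lists, 1 point a gene, with genes called higher in red, lower in blue and not called in grey, and a black bar at each list's median. The SAUR median stands at −2.59 and that of aliphatic glucosinolate genes at 2.23. The point at −6.86 is IAA6, which had no reads on PPZ, so its fitted value depends on the prior count.

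Genes of the photosynthetic apparatus were read differently with each of the libraries without PPZ. With both, 3 of 20 tested light-harvesting genes fell, 1 of 31 genes of the photosystems and Rubisco rose and 4 of 26 genes of chlorophyll synthesis rose. In none of these 3 lists did a member stand higher in the shallower library without PPZ than in the deeper one, with median log2 differences within that pair of −0.57, −0.43 and −0.36. Without the deeper library without PPZ, 26 genes of the photosystems and Rubisco and 22 genes of chlorophyll synthesis were called higher, and 6 light-harvesting genes were called in each direction. Without the shallower one, 16 light-harvesting genes and 17 genes of the photosystems and Rubisco were called lower, while 5 genes of chlorophyll synthesis were called higher and 4 lower. PORA and PORB, the protochlorophyllide reductases that hold the pigment in etiolated tissue, had 31154 and 30426 (PORA) and 49563 and 47953 (PORB) normalized reads on PPZ. Without PPZ, PORA had 22054 and 14427 and PORB had 28687 and 21507. Their log2 changes were 0.82 ± 0.20 (adjusted p = 0.018) and 0.99 ± 0.17 (adjusted p = 0.0036), and both calls were lost with either PPZ library left out (0.81 and 0.84 for PORA, 0.97 and 1.02 for PORB). LHCB1.5, one of the near-identical LHCB1 genes, stood at −1.21 ± 0.22. RBCS1A was not tested, since its reads could not be resolved, and the authors' means were 88981 on PPZ and 98151 without PPZ.

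Among 12 tested regulators of greening 3 fell. The share called was near the 23.6% of all genes tested, both here and among the photoreceptor genes below. HY5, a bZIP factor of light responses, had 749 and 638 normalized reads on PPZ, against 1228 and 929.9 without PPZ (log2 change −0.64 ± 0.14, adjusted p = 0.011), a call lost without the shallower PPZ library (−0.51). GLK1, a regulator of chloroplast genes, was not called (0.24 ± 0.15), but was called higher without the deeper library without PPZ (0.54). Of 10 photoreceptor genes, UVR8 and CRY1 fell (−0.41 and −0.31), both calls being lost with either PPZ library left out (−0.39 and −0.43, −0.28 and −0.34). Without the deeper or the shallower library without PPZ, 5 and 6 photoreceptor genes were called lower. PHYB was not called (−0.16 ± 0.10), except without the shallower library without PPZ (−0.21).

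Several groups of defence and specialised metabolism rose. Of 11 tested genes of aliphatic glucosinolate synthesis 10 rose and none fell, with a median log2 change of 2.23. CYP83A1 (AT4G13770), the P450 after the aldoxime step, had 150 and 152 normalized reads on PPZ, against 7.15 and 5.25 without PPZ (4.44 ± 0.35, adjusted p = 7.2e-05). BCAT4, which starts the methionine chain elongation, had 154 and 166 on PPZ, against 7.15 and 12.3 without PPZ (4.09 ± 0.34). The regulator MYB28 had 194 and 218 on PPZ, against 91.2 and 112 without PPZ (1.06 ± 0.16, adjusted p = 0.0020). Of 9 genes of xenobiotic response, mostly glutathione transferases, 8 rose and none fell. GSTU25 had 56.3 and 61.1 on PPZ, against 1.79 and 3.5 without PPZ, a ratio of 24.8 with a counting interval of 9.46 to 92.3. OPR1, an oxophytodienoate reductase, stood at 1.90 ± 0.16. Of 19 tested flavonoid genes 9 rose and none fell, with a median of 0.35. The flavonoid hydroxylase gene TT7 had 315 and 299 on PPZ, against 181 and 158 without PPZ (0.84 ± 0.13, adjusted p = 0.0020), while CHS, the first enzyme, was not called (0.18 ± 0.12) except without the deeper library without PPZ (0.28). Without the deeper or the shallower PPZ library 4 and 5 flavonoid genes were called higher.

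Of the lists of other hormones, cold, the clock and the cell cycle, all but that of cytokinin held calls in both directions. Of 14 tested jasmonate genes 5 rose and 1 fell, and 3 were called higher without the deeper PPZ library. VSP1, a storage protein gene induced by jasmonate, had 194 and 185 normalized reads on PPZ, against 40.2 and 73.6 without PPZ (log2 change 1.91 ± 0.24, adjusted p = 0.00069), and JAZ9 stood at −0.91 ± 0.14. Of 20 tested ethylene genes 4 rose and 4 fell, and ACS11, an ACC synthase, had 88.7 and 72.6 on PPZ, against 5.36 and 1.75 without PPZ (4.26 ± 0.49, adjusted p = 0.00050). No ethylene gene was called lower with either PPZ library left out, and 1 and 2 were called higher without the deeper and without the shallower one. Of 13 tested cold and abscisic acid genes 5 rose and 2 fell. The dehydrin gene COR47 had 2243 and 2345 on PPZ, against 5820.4 and 8194 without PPZ (−1.61 ± 0.15), and LTI30, another dehydrin, had 185 and 139 on PPZ, against 36.6 and 61.3 without PPZ (1.85 ± 0.27). COR15A was under the filter. Without the deeper PPZ library 3 genes of this list were called higher. All 5 tested type-A response regulators of cytokinin fell, among them ARR7 (−1.05 ± 0.13, adjusted p = 0.00058) and ARR5 (−1.05 ± 0.20), and 3 were called with either PPZ library left out. Of 12 tested clock genes 6 fell and 1 rose. PRR7 had 481 and 413 on PPZ, against 807 and 888 without PPZ (−0.92 ± 0.11, adjusted p = 0.00056), GI stood at −0.87 ± 0.10, and 3 were called lower with either PPZ library left out. Of 15 cell cycle genes 3 rose and 2 fell. CYCD3;3 stood at 0.64 ± 0.10 and CYCD1;1 at −0.81 ± 0.13, and with either PPZ library left out 1 was called in each direction.

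Genes known from root hairs rose in this tissue labelled hypocotyl, while other root markers were mixed. All 6 tested root hair genes rose, with a median log2 change of 2.25. Their summed level was 361 and 380.1 normalized reads on PPZ, against 86.7 and 59.5 without PPZ. COBL9 (AT5G49270), a wall protein of growing root hairs, had 31.5 and 27.5 normalized reads on PPZ, against 5.36 and 1.75 without PPZ (2.82 ± 0.49, adjusted p = 0.0038). RHD6, the bHLH factor that starts root hair formation, had 37.5 and 40.8 on PPZ, against 8.94 and 14.0 without PPZ (1.82 ± 0.34, adjusted p = 0.0057). Of 7 tested root markers 3 rose and none fell. PLT2, a factor of the root stem cell niche, had 19.6 and 35.4 on PPZ, against 4.47 and 1.75 without PPZ (2.80 ± 0.59, adjusted p = 0.0096), and the iron transporter gene IRT1 stood at 1.97 ± 0.33. SHR (−0.16 ± 0.10), SCR (−0.06 ± 0.09), PIN2 (0.23) and PHO1 (0.23) were not called, and WOX5 and NRT2.1 were under the filter. The summed level of the 7 markers was 2947 and 3061 on PPZ, against 2603 and 3031 without PPZ. Without the deeper or the shallower PPZ library, 2 and 1 of them were called.

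A further list of root endodermis and ER body genes was added after its values were seen, so it describes and supports nothing. BGLU21, a root beta-glucosidase, had 1885 and 2192 normalized reads on PPZ, against 232 and 233 without PPZ. The triterpene genes THAS1 (2856 and 2760.5 on PPZ, against 282 and 448 without PPZ) and MRO lay likewise, as did AGP30. The 5 CASP genes, which build the Casparian strip of the endodermis, were lower: CASP4 had 35 and 31 on PPZ, against 167 and 238 without PPZ, and CASP1 had 229 and 230.3 on PPZ, against 529 and 636 without PPZ. NAI2 and BGLU23 were not called. The part of root tissue in the harvested material in any of the changes above was not tested.

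All 15 tested seed reserve genes rose, with a median log2 change of 1.22. Their summed level was 44649.6 and 39057.8 normalized reads on PPZ, against 17094 and 25526 without PPZ. SESA5, a 2S albumin, had 1106 and 1159.7 on PPZ, against 197 and 247 without PPZ (2.40 ± 0.13, adjusted p = 1.3e-05). CRU3, a cruciferin, had 18394 and 15736 on PPZ, against 6899 and 10984 without PPZ (0.93 ± 0.21, adjusted p = 0.013). Without the deeper PPZ library 12 of the 15 were called. Of 11 reference genes, chosen as steady in most tissues, 2 actin genes fell, ACT2 (−0.54 ± 0.12) and ACT8 (−0.40 ± 0.12), and GAPC2 rose (0.40 ± 0.11). The share called was near the 23.6% of all genes tested. These 3 calls were lost with either PPZ library left out (−0.53 and −0.54, −0.40 and −0.41, 0.42 and 0.38), and that of ACT8 also with limma-trend (−0.40) and upper quartile scaling (−0.36). Without the deeper library without PPZ, 6 reference genes were called lower.

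**Figure D4:**
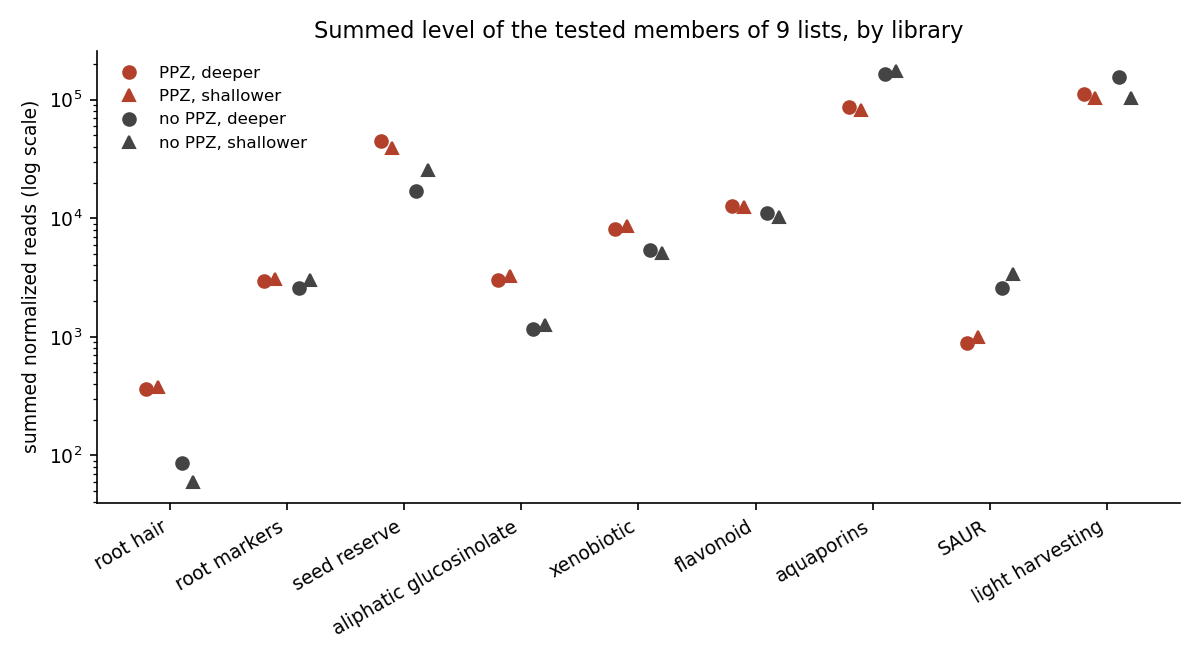
Summed normalized reads of the tested members of 9 gene lists in each library (log axis), with PPZ in red left of no PPZ in grey, circles for the deeper and triangles for the shallower library. Root hair genes sum to 361 and 380.1 on PPZ and to 86.7 and 59.5 without PPZ, while SAUR genes sum to 893 and 988 on PPZ and to 2600.0 and 3418 without PPZ.

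Of the genes that averaged 50 normalized reads or more, the lowest change was that of AT4G37220, annotated by RefSeq as a WCOR413 family protein, with 51.2 and 40.8 normalized reads on PPZ, against 1608 and 2553 without PPZ (log2 change −5.47 ± 0.32, adjusted p = 2.2e-05). It was followed by EXPA8 and SAUR16, and by GPAT3, a glycerol-3-phosphate acyltransferase, with 65.6 and 78.8 on PPZ, against 735 and 1075 without PPZ (−3.60 ± 0.24). The hydrolase gene AT5G41900 (−3.60 ± 0.35) and the proline-rich protein gene PRP2 came next. PRP2 had 205 and 171 on PPZ, against 1709.8 and 2009 without PPZ (−3.31 ± 0.13, adjusted p = 9.5e-06). SAUR64, GASA6, AT3G42800 (−3.02 ± 0.25) and SAUR19 (−3.0 ± 0.32) completed the 10 lowest. The highest change was that of AT5G04120, a phosphoglycerate mutase family gene, with 271 and 178 on PPZ, against 3.58 and 17.5 without PPZ (4.92 ± 0.65, adjusted p = 0.00095). The mannose-binding lectin genes AT1G52050 (4.60 ± 0.44), AT1G52060 (4.32 ± 0.46) and AT1G52070 (4.09 ± 0.32), which are neighbours by locus number, were among the 10 highest. AT1G52070 had 565 and 772 on PPZ, against 45.6 and 28 without PPZ. BGLU34, a beta-glucosidase of the myrosinase kind, stood at 4.48 ± 0.47, with 13 reads in all without PPZ. CYP83A1, BCAT4, AGP30, AT5G60530 (3.83 ± 0.31) and the peroxidase gene AT1G49570 (3.64 ± 0.37) made up the rest.

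The same PPZ comparison can be made in seedlings given GA3, with libraries that the mock comparison does not share. There 10173 of 19500 tested genes were called (52.2%), 5422 higher (27.8%) and 4751 lower (24.4%), and the spread of its pairs was SD 0.0929 on PPZ and 0.121 without PPZ. The PPZ effect in mock differed from that in GA3 for 680 of 19538 genes (3.48%), of which 317 had the higher log2 change in mock (1.62%) and 363 the lower (1.86%). This count ranged from 53 without the deeper library of PAC and GA3 to 2767 without the shallower library of PAC with mock. The synthesis genes gave no call of a difference. With 3.48% of all genes called, no call in a short list does not show that the effects were equal. CYP85A2 changed by 1.70 in mock and 2.04 in GA3, with a difference of −0.33 ± 0.16, and DWF4 by 0.73 in mock and 0.69 in GA3. In GA3, CYP85A2 averaged 5221 normalized reads on PPZ and 1269 without PPZ. Among SAUR genes, 18 of 21 fell in mock and 19 of 20 in GA3, with no call of a difference. In GA3 all 6 tested root hair genes rose, as did 10 of 11 aliphatic glucosinolate genes, 8 of 9 xenobiotic genes and 8 of 14 seed reserve genes. Chlorophyll synthesis had 21 of 25 members higher in GA3, with a median log2 change of 0.56. Of these 25 members, 3 differed between mock and GA3, all with the lower log2 change in mock. That share is above the 3.48% of all genes. Secondary wall and lignin had 18 of 24 members lower in GA3, with a median of −0.71. Of the 24, 4 differed between mock and GA3, all with the higher log2 change in mock, a share also above 3.48%.

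Single genes were called as different, though many of these calls were lost when certain single libraries were left out. GA20OX1 averaged 7.76 normalized reads on PPZ and 215 without PPZ in GA3, a log2 change of −4.76. Its fall was smaller in mock (difference 2.70 ± 0.52, adjusted p = 0.020). The PPZ libraries in GA3 held 10.3 and 5.2 normalized reads of GA20OX1, so the size of this difference rests on few reads. EXPA8 averaged 299 on PPZ and 1903 without PPZ in GA3 (−2.71), so that its fall was larger in mock (−1.85 ± 0.34, adjusted p = 0.017). IAMT1, which methylates auxin, averaged 47.9 on PPZ and 351 without PPZ in mock, against 30.7 and 47.4 in GA3 (difference −2.19 ± 0.28, adjusted p = 0.0040). WSD1, a wax ester synthase, was under the filter of the mock comparison, with 1.28 on PPZ and 12.4 without PPZ, and was listed at 0 on PPZ and 215 without PPZ in GA3. SMT3 fell in both, by 0.94 in mock and 1.78 in GA3 (difference 0.85 ± 0.15, adjusted p = 0.013). AT3G59370, annotated as a calcium-binding protein, rose in mock (1.78) and fell in GA3 (−2.19), with a difference of 3.98 ± 0.38 (adjusted p = 0.0011). Of 20 aquaporins tested for a difference 4 were called, all with the higher log2 change in mock. Expansins held 7 called of 24 tested, 4 with the higher and 3 with the lower log2 change in mock. Over all genes tested, 3.48% differed.

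**Figure D5:**
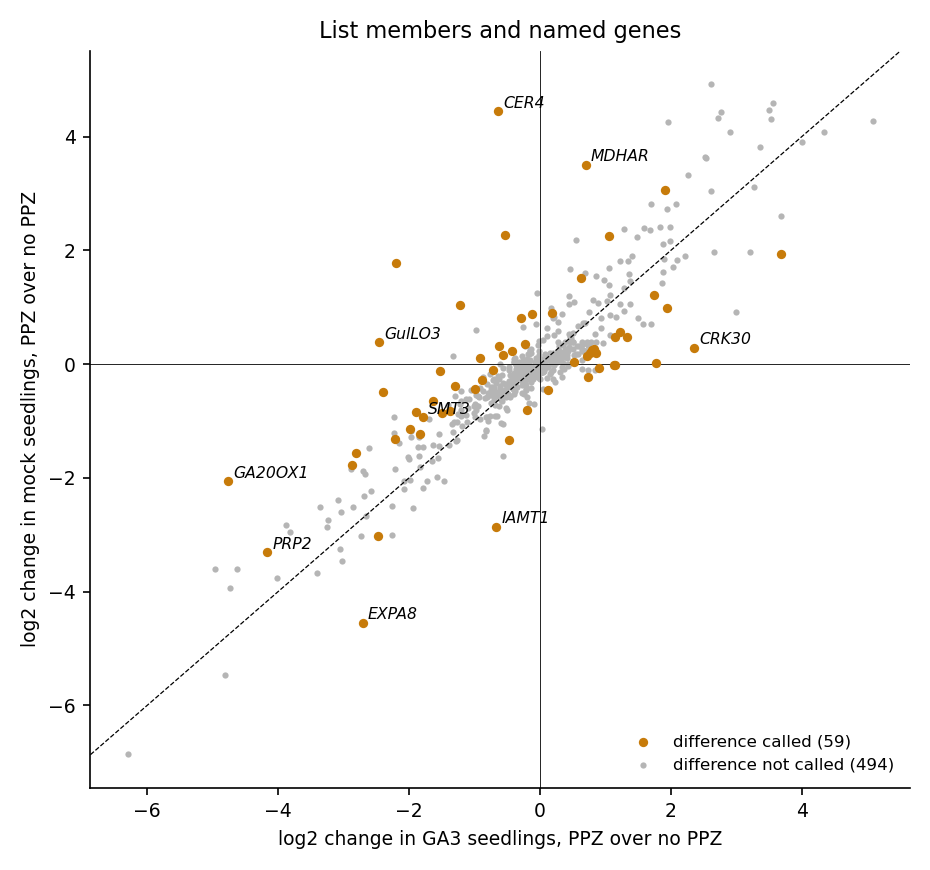
Log2 change on PPZ in mock seedlings (vertical axis) against that in GA3 seedlings (horizontal axis) for 553 list members and named genes, with a dashed line of equal change. The 59 genes whose difference was called are in orange, among them GA20OX1 above the line and EXPA8 and IAMT1 below it.

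The bzr1-1D comparison of the study uses the same PPZ libraries of wild type, so only the group means are set side by side. DWF4 averaged 524 normalized reads in bzr1-1D on PPZ, 1432 in wild type on PPZ and 884 in wild type without PPZ. CYP85A2 averaged 504, 5602 and 1726 in the same order of groups, and BAS1 averaged 645, 289 and 935. Of the growth genes, IAA19 averaged 358 in bzr1-1D on PPZ, 52.7 in wild type on PPZ and 372 in wild type without PPZ, while GASA6 averaged 359.9, 219 and 1787. CYP83A1 averaged 28.7, 151 and 6.2.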

How the data were processed

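Total RNA of dark-grown seedlings was made into libraries with an Illumina TruSeq RNA kit, per the labels' protocols. TopHat and DESeq are the tools that the authors ran, as listed in the submitters' processing notes. Their versions, the build, the gene models and the counter were not given in the sources used here. Per the file headers, which are those of DESeq output, each group column deposited by the authors is a signal, the mean of gene read counts divided by size factors, called normalized reads here. The deposited fold ratio and p-value columns compare other groups and were not used. Each table holds 33518 genes and 5 rows naming no gene, which were left out: reads aligned to several places were 10.7% of the summed column on PPZ and 9.26% without PPZ, those outside genes 1.47% and 1.58%, ambiguous ones 1.36% and 1.35%.

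Every group mean adds whole multiples of 2 steps, 1 for each library, which gave size factors and whole reads for 23776 of 23778 genes above 0 on PPZ and 23129 of 23132 without PPZ. This recovery and the fit were tried on simulated data. For the fit, all simulated libraries had the same spread, so its behaviour under the uneven spread of these pairs was not tested. The table of PAC alone was rescaled by 0.992, the median ratio over 18871 genes. limma-voom (limma 3.58.1, R 4.3.3) was fitted on the 4 libraries, for genes averaging 10 normalized reads or more, with Benjamini-Hochberg adjustment at 0.05. The difference from GA3 was a contrast over the 8 wild-type libraries. Errors are standard errors of the fit. Counting intervals are exact binomial and cover counting error only, and a count of 0 was set to a floor of 3 reads over the group.

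The gene lists (40 lists of 609 loci, of which 538 were tested, 105 called higher and 163 lower), the groups and the comparison were chosen with earlier results of these data known. Named genes were the 10 highest and 10 lowest changes, up to 2 highest and 2 lowest calls of a list, a set of genes fixed by name, and the 5 highest and 5 lowest differences from GA3. Some further list members were named after their values were seen. Symbols came from RefSeq TAIR10.1 by locus (32709 of 33518 matched). Alternatives were other scalings, filters, pseudocounts and tests, all 10 libraries in the fit, and leaving out each library.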

Additional observations from a re-analysis of the deposited data

Results flagged for a closer look

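The PPZ effect in mock seedlings was tested against the same effect in seedlings given GA3, and 680 genes differed at a limma-voom adjusted p under 0.05. Groups of 2 libraries are too small for a check of single libraries that stand apart. Of the genes chosen by the naming rule, 19 differed, and each value below is the log2 change on PPZ in mock minus that in GA3. It was below 0 for IAMT1 (-2.19), the receptor-like kinase gene CRK30 (-2.08), EXPA8 (-1.85), the pyruvate kinase family gene AT4G26390 (-1.75), the peptidyl-prolyl isomerase family gene AT5G05420 (-1.74), ACO4, an ACC oxidase (-0.58), and GASA6 (-0.56). It was above 0 for LAC4 (0.56), HAT2 (0.59), GH3.17 (0.72), SMT3 (0.85), PRP2 (0.87), GA20OX1 (2.70), the monodehydroascorbate reductase gene MDHAR (2.80), the major facilitator family gene AT1G72140 (2.81), GulLO3, a lactone oxidase family gene (2.84), AT3G59370 (3.98), CER4 (5.09) and WSD1 (5.39). CER4 had 1 read in all without PPZ in mock, and WSD1 had no reads on PPZ in GA3. The size of both values therefore depends on the prior count of the fit. GA20OX1 averaged 7.76 normalized reads on PPZ in GA3, so the size of its value rests on few reads. CRK30 and GulLO3 were not called in mock (0.29 and 0.38), while in GA3 CRK30 rose (2.36) and GulLO3 fell (-2.46). MDHAR rose to 91.2 and 128 normalized reads on PPZ in mock, against 15.2 and 3.5 without PPZ. Of the list members named outside that rule, XTH9 (-0.51), SOB7 (0.65), PIN2 (0.66) and CASP1 (0.90) also differed. The 19 genes above were kept because they passed the threshold, and the alternatives reuse the same libraries. An unchanged sign is therefore no separate support for them. None of the 19 differences changed sign under any alternative tried, but leaving out the deeper library of PAC and GA3 ended 15 of the 19 calls, the most of any alternative.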

How the results depend on the processing

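The count of 4595 genes lay between 3716 and 5967 under the alternatives of scaling, filter, test and libraries in the fit, and between 2166 and 7108 when 1 library was left out. The higher of these came without a library of PAC alone and the lower without a PPZ library. With 1 library left in a group, its spread is assumed to be that of the other group, and the pair without PPZ had the larger spread. Of the 4595 calls, 2134 to 4533 were called again in each alternative, all with the same direction. Among calls, 51.2% were higher. This share was 59.5% with upper quartile scaling and 64.3% with total reads, which moved the median log2 change by 0.0458 and 0.0756. Lower calls were the more numerous with median-of-ratios scaling (49.1%), quality weights (48.7%), genes averaging 50 normalized reads or more (45.3%) and either library of PAC alone left out (49.6% and 47.5%). The count of differences from GA3 was 680, 652 among genes averaging 50 normalized reads or more, 551 with limma-trend, 585 with all 10 libraries, and 53 to 2767 when 1 library was left out. Sign changed for 3 genes that were not called: CPD (0.013 with total reads, and -0.24 to 0.11 with 1 library left out), DET2 (-0.030 without the shallower library of PAC alone and -0.021 without the deeper PPZ library, up to 0.21) and AT5G05420 (-0.16 to 0.21 with 1 library left out). Of the values in these ranges, CPD at -0.24 without the shallower library of PAC alone was called. The recovery of whole reads was the same from both tables that hold the PPZ group. The depth of 8080550 reads limits low genes in the shallower library of PAC alone. No paired analysis was possible because the recovered libraries cannot be tied to replicate numbers.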
